A study of Homo sapiens with 3 samples.

Results

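The metallothioneins MT2A, MT1E, MT1F, MT1G, MT1H, MT1M and MT1X were described across the cells of a Caco-2/HT29 co-culture. These 7 members were taken by symbol from the 33538 genes of the count tables, and they were picked with their levels in these cells known, so their levels and differences are given as a description with no test. Caco-2 and HT29 are established human colorectal carcinoma lines. They were seeded together at a ratio of 9 to 1 into Transwells, inserts with a permeable membrane, and harvested on day 23. Of the wells, 2 were untreated controls and 1 received 1 ng/ml Escherichia coli O111:B4 lipopolysaccharide (LPS), a bacterial cell wall component, in the apical chamber from day 22 for 24 h. Each Transwell gave 1 library of droplet 3′ single-cell RNA-seq. All 3 wells were seeded from the same cultures of both lines, and control 1, control 2 and LPS are therefore wells, not separate cell stocks.

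Metallothioneins are small cysteine-rich proteins that bind zinc and copper. Their genes are transcribed through metal response elements, short DNA motifs bound by the zinc-sensing factor MTF1, and they are also known to respond to glucocorticoids, oxidative stress and interferons. In the intestinal epithelium they are known to hold zinc that enters from the diet.

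All members lie in 1 cluster of metallothionein genes on chromosome 16. In GRCh38 the genes from MT2A to MT1X span chr16:56608584-56684196, or 75.6 kb, with 6 members on the plus strand and MT1G on the minus strand. MT2A is at chr16:56608584-56609497, MT1E at chr16:56625475-56627112, MT1M at chr16:56632659-56633981, MT1F at chr16:56657731-56660698, MT1G at chr16:56666730-56668065, MT1H at chr16:56669814-56671129 and MT1X at chr16:56682470-56684196. Each is a protein-coding gene with 3 exons and a coding sequence of 186 bases in the transcript used here.

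The coding sequences are nearly alike, which bears on how reads can be told apart. Identity between members ran from 88.71% to 95.16%. The 4 most abundant members are shown, in lower case, with capitals at each base that differs from MT2A.
MT2A: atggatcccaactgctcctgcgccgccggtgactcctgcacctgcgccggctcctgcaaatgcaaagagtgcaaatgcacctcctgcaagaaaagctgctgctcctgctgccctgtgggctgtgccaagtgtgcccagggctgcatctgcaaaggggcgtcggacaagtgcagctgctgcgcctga
MT1E: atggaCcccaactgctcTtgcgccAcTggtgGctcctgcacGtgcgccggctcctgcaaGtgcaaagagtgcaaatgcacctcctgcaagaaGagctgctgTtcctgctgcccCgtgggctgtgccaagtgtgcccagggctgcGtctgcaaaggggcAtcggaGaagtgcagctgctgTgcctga
MT1X: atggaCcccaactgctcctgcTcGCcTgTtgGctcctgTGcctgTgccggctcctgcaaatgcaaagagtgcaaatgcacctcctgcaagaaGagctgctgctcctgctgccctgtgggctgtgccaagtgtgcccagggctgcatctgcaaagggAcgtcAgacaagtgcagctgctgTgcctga
MT1F: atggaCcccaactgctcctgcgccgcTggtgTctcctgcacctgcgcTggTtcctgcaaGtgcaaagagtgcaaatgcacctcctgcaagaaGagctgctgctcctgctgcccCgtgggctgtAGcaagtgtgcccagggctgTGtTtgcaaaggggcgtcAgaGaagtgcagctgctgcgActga
MT1E and MT1X each differed from MT2A at 14 bases, and MT1F at 16. Over whole transcripts, the longest run of identical bases shared with another metallothionein transcript was 96 bases for MT1G and MT1X, 79 for MT1E, 71 for MT1M, 65 for MT2A, 64 for MT1F and 60 for MT1H. MT1E and MT1M share theirs with the pseudogene MT1JP. Reads that fall within such a run cannot be assigned to 1 gene, so the split of counts between members is uncertain to that extent.

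RefSeq promoters of GRCh38.p14 were given for MT2A, MT1H and MT1X, and MT1E, MT1F, MT1G and MT1M are named only. The 250 bases upstream of the start are printed for MT2A and MT1X, which had UMIs in both line types, with capitals at metal response element cores, the letters TGCACNC or TGCGCNC on either strand.
MT2A, chr16:56608334-56608583, plus strand: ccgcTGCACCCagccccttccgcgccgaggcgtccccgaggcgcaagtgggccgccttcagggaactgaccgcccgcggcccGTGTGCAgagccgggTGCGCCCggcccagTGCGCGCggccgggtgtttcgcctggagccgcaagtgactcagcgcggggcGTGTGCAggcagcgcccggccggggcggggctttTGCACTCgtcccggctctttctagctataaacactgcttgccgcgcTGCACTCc
MT1X, chr16:56682220-56682469, plus strand: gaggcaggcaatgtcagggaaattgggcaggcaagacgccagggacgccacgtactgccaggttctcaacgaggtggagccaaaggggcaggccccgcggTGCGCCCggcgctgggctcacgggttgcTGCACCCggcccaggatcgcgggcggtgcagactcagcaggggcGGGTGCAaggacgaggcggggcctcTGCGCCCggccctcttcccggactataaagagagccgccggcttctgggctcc
MT2A held 7 such cores, MT1X 4 and MT1H 8, in windows of equal length. Of 35116 promoters, 24.8% held at least 1 core, and 0.0313%, 0.370% and 0.0171% held at least as many as MT2A, MT1X and MT1H. The core letters of the interferon-stimulated response element, GAAA repeated after any 2 bases, were searched on both strands and had no match in these 3 windows, while 3.02% of all promoters held one. A match is a match of letters and not a bound site.

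The tables held 5811, 6495 and 6838 barcodes for control 1, control 2 and LPS, of which 4633, 4989 and 4850 cells were kept at medians of 5459, 4103 and 3574 UMIs (unique molecular identifiers, 1 per captured RNA molecule). The LPS library was thus the shallowest. Between 9 and 11 barcode sequences were shared by each pair of libraries, and none of these cells had the same counts.

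Cells were split by line from 22 genes of HT29 and 13 of Caco-2. A cell was called HT29-type or Caco-2-type from its share of UMIs on the HT29 list, with cuts placed after the shares were seen. This gave 604, 895 and 738 HT29-type cells and 3800, 3652 and 3595 Caco-2-type cells in control 1, control 2 and LPS. Marker genes of undifferentiated HT29 cells that were not used for the split reached 0.735% to 1.26% of their HT29-type level in Caco-2-type cells, and enterocyte markers reached 1.33% to 8.03% of their Caco-2-type level in HT29-type cells. What these shares come from was not tested.

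The leading metallothioneins differed between the line types. MT1X and MT1E led in HT29-type cells of both controls, while in the LPS library MT1E, MT2A and MT1X stood close together at 50.7, 47.0 and 46.0 CPM. MT1F led in Caco-2-type cells of every library, and MT2A was present in both line types. Levels are in CPM, the UMIs of the gene scaled by all UMIs of those cells. A 3′ protocol counts each molecule once whatever its length, so levels of different members may be compared without a length correction.

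MT1X was at 56.2, 70.0 and 46.0 CPM in HT29-type cells of control 1, control 2 and LPS, against 10.6, 10.6 and 10.7 CPM in Caco-2-type cells. MT1E was at 43.0, 33.9 and 50.7 CPM in HT29-type and 5.06, 5.35 and 6.52 CPM in Caco-2-type cells. For both genes, every HT29-type value lay above every Caco-2-type value. In a fit across all genes with the library as a block, MT1E was higher in HT29-type cells by 2.82 on the log2 scale (SE 0.14) and MT1X by 2.34 (SE 0.12), over 3 libraries of each line type.

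MT1F ran the other way. It was at 53.4, 54.4 and 49.7 CPM in Caco-2-type and 5.79, 6.15 and 7.71 CPM in HT29-type cells, and its fitted log2 difference, HT29-type over Caco-2-type, was -3.11 (SE 0.15). At least 1 MT1F UMI was found in 24.3%, 20.5% and 16.8% of Caco-2-type cells and in 3.48%, 2.46% and 3.12% of HT29-type cells of the 3 libraries, at median depths of 5557, 4331 and 3702 against 5320, 3755 and 3588. MT1F in HT29-type cells stood at 12.6% of its Caco-2-type level, averaged over libraries, and MT1E and MT1X in Caco-2-type cells at 13.5% and 19.1% of their HT29-type levels, above the shares of the marker genes of the other line.

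MT2A, the most widely expressed human isoform, was at 20.7, 21.6 and 47.0 CPM in HT29-type and 15.5, 15.2 and 17.2 CPM in Caco-2-type cells. Its log2 difference within each library was 0.41, 0.51 and 1.45 in control 1, control 2 and LPS, and the fit gave 0.74 (SE 0.15). The LPS library decided the size of this difference, and the fit without it gave 0.37.

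The other 3 members were low. MT1G was at 1.10, 0.802 and 2.35 CPM in HT29-type and 1.89, 1.17 and 3.19 CPM in Caco-2-type cells. MT1H had 13 UMIs in Caco-2-type cells of control 1, 1 in control 2 and none in LPS. MT1M had 6, 0 and 3 UMIs there. Neither had a UMI in HT29-type cells, where 3 counts would have been 0.826, 0.802 and 1.01 CPM. MT1H and MT1M could therefore not be compared between line types at this depth, and these limits cover counting error only.

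**Figure D1:**
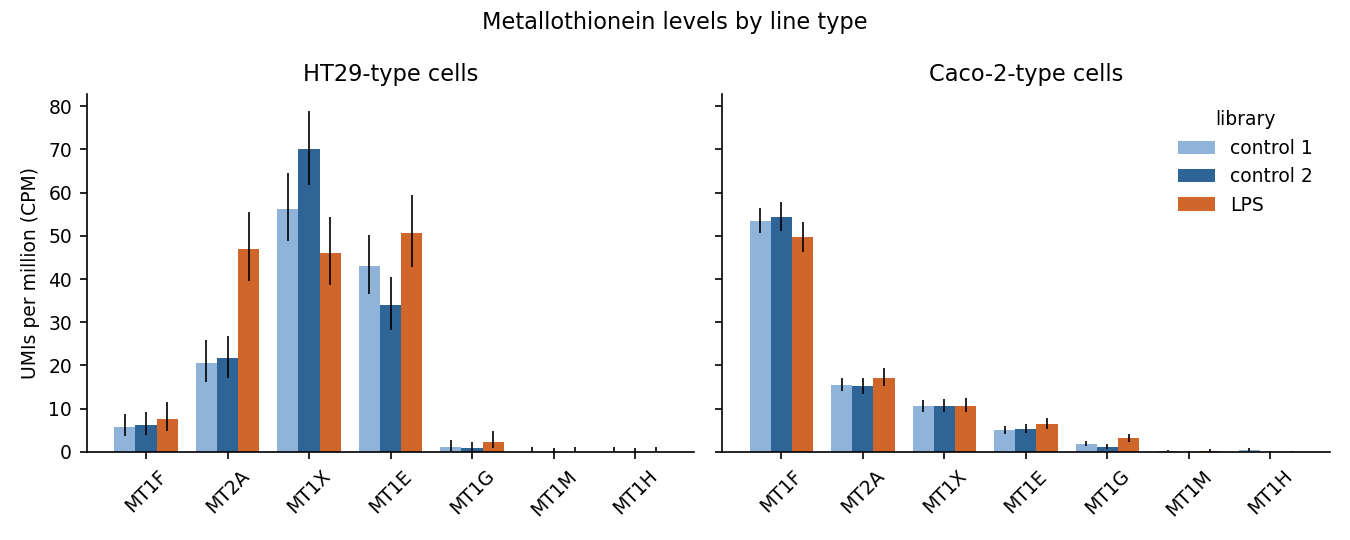
Levels of the 7 members in HT29-type and Caco-2-type cells, in CPM on linear axes, with 1 bar per library and exact 95% Poisson intervals of the counts. MT1X and MT1E are tallest in HT29-type cells of the controls and MT1F in Caco-2-type cells, and in HT29-type cells of the LPS library MT2A, at 47.0 CPM, stands level with MT1X, at 46.0 CPM.

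The make-up of the metallothionein pool followed. All members together were at 127, 133 and 154 CPM in HT29-type cells and 87.2, 86.8 and 87.5 CPM in Caco-2-type cells. MT1X made 44.3%, 52.8% and 29.9% of the HT29-type pool, MT1E 33.9%, 25.6% and 32.97% and MT2A 16.3%, 16.3% and 30.6%. MT1F made 61.2%, 62.7% and 56.8% of the Caco-2-type pool.

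The 5 other metallothionein genes of the table were looked up in the same cells. MT3, known as the neuronal isoform, was at 6.61, 8.02 and 6.37 CPM in HT29-type cells and at or below 0.212 CPM in Caco-2-type cells. MT1A was at 3.17, 3.45 and 3.77 CPM in Caco-2-type cells. MT1B and MT1HL1 had no UMI in either line type, and MT4 had at most 1 UMI in any line type and library.

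Genes that handle zinc and copper and genes of the stress and glucocorticoid responses were compared between line types with the edgeR quasi-likelihood test and Benjamini-Hochberg adjustment. Of 13835 genes tested, leaving out the genes used to split the lines, 34.8% were higher and 38.6% lower in HT29-type cells, so the counts of each list are read against that background. The lists were chosen with earlier results of these data known.

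Of the 25 zinc genes, 19 were tested, 10 were higher in HT29-type cells, 4 were lower and 5 did not pass. The zinc importer SLC39A8 was higher by 3.03 on the log2 scale (SE 0.27, edgeR adjusted p = 5.76e-13), at 9.36 ± 1.26 CPM (mean ± SD, n = 3) against 1.08 ± 0.29 CPM. SLC39A6, another importer, was higher by 1.66 (edgeR adjusted p = 6.04e-14), and SLC30A7, which loads zinc into the secretory pathway, by 1.45 (edgeR adjusted p = 3.00e-13). The epithelial importer SLC39A5 had a log2 difference of -2.95 (edgeR adjusted p = 1.58e-23), at 14.1 CPM in HT29-type and 103 CPM in Caco-2-type cells. SLC30A10 (-2.19) and SLC39A14 (-1.75) were also lower, with edgeR adjusted p of 0.000548 and 1.38e-16. The median over the tested zinc genes was 0.27 against -0.07 over all genes tested.

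Of the 8 copper genes, 3 were higher and 2 lower. ATP7A, the copper exporter, was higher by 2.89 (edgeR adjusted p = 4.42e-21) and the mitochondrial copper chaperone COX17 by 1.04 (edgeR adjusted p = 3.17e-15). The copper transporter-like gene SLC31A2 and the chaperone ATOX1 had log2 differences of -2.29 and -1.47 (edgeR adjusted p = 2.34e-06 and 2.49e-19). The list's median was 0.09.

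Of the 11 stress genes, 10 were tested and 9 were higher in HT29-type cells, with a median of 1.30. The cystine transporter SLC7A11 was higher by 2.55, the glutathione synthesis subunits GCLM by 2.24 and GCLC by 1.11, the chaperones HSPH1 by 2.03 and HSPA1B by 1.57, and the thioredoxin reductase TXNRD1 by 1.49, each at an edgeR adjusted p of 1.42e-10 or less. Of the 7 glucocorticoid genes, 6 were tested, 4 were higher and 1 was lower. TSC22D3, induced by glucocorticoids, was at 173 CPM in HT29-type and 7.20 CPM in Caco-2-type cells, a log2 difference of 4.47 (edgeR adjusted p = 7.91e-32). KLF9, SGK1 and PER1 were higher by 2.51, 1.72 and 1.34 (edgeR adjusted p = 8.81e-07, 2.94e-18 and 6.04e-08). NR3C1, the glucocorticoid receptor, was at 0.648 CPM in HT29-type against 11.6 CPM in Caco-2-type cells, a log2 difference of -4.37 (edgeR adjusted p = 1.52e-13).

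Clusters were made with the metallothionein genes left out of the features, so members did not shape them, although other genes of the same cells did. Cluster names come from markers: transit amplifying-like (TALC), enterocyte-like (ECLC), goblet cell-like (GCLC), early enteroendocrine cell-like (EECLC), undifferentiated HT29 (U-HT29) and fetal gene expressing cells (FGEC). Clusters with no clear name stayed unnamed. The largest, of 3859 cells, was led by DKK1, PLA2G2A and ANKRD1, which are markers of transit amplifying-like and of stem cell-like cells, so it is called by DKK1 here.

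The line pattern recurred in clusters made almost wholly of 1 line type, as their make-up implies, and not in every class. In the DKK1-led cluster, TALC and ECLC, made of 96.5%, 97.7% and 97.6% Caco-2-type cells, MT1F exceeded MT1E and MT1X in every library. ECLC held MT1F at 46.9, 83.0 and 54.3 CPM in control 1, control 2 and LPS, so the controls differed more than LPS did from control 1. U-HT29, 90.1% HT29-type, held MT1E at 40.3, 33.9 and 50.3 CPM and MT1X at 55.8, 72.0 and 45.3 CPM, with MT1F at 8.29 to 9.89 CPM. GCLC joined 2 clusters that ran opposite ways. The one led by SLURP1, 66.4% Caco-2-type, held MT1F at 48.1 ± 6.98 and MT1X at 25.8 ± 5.83 CPM (mean ± SD, n = 3). Of its cells 0.295% were HT29-type and the rest were called as neither line, and what the uncalled cells are was not tested. Its goblet name was the weaker, with 1 goblet marker among the 10 most raised genes against 3 in the other cluster. Its median depth was 7238 UMIs against 3623. The one led by FCGBP, 64.6% HT29-type, held MT1F at 12.3 ± 6.39 and MT1X at 38.1 ± 20.2 CPM, from 2 to 5 MT1F and 6 to 22 MT1X UMIs in a library.

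EECLC held both MT1F and MT1X. MT1X was at 78.0, 53.7 and 43.0 CPM from 17, 14 and 5 UMIs, and MT1F at 73.4, 123 and 51.5 CPM from 16, 32 and 6 UMIs, while MT1E had at most 2 UMIs in a library. This cluster had 63, 91 and 35 cells of low depth, so its values rest on few UMIs. FGEC had the highest MT2A of the named classes. Of its cells 60.0% were Caco-2-type and 1.43% HT29-type, yet its MT1F was at 8.16 ± 11.1 CPM (mean ± SD, n = 3) from 5 UMIs. Its 21, 41 and 8 cells held 19, 18 and 4 MT2A UMIs, or 99.0, 65.9 and 106 CPM, and no MT1E UMI in any library. In control 1, 18 of the 19 MT2A UMIs came from 1 cell, and in control 2 the 18 UMIs came from 12 cells. Without that cell, FGEC of control 1 held MT2A at 6.06 CPM, so that its high value there rested on 1 cell.

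**Figure D2:**
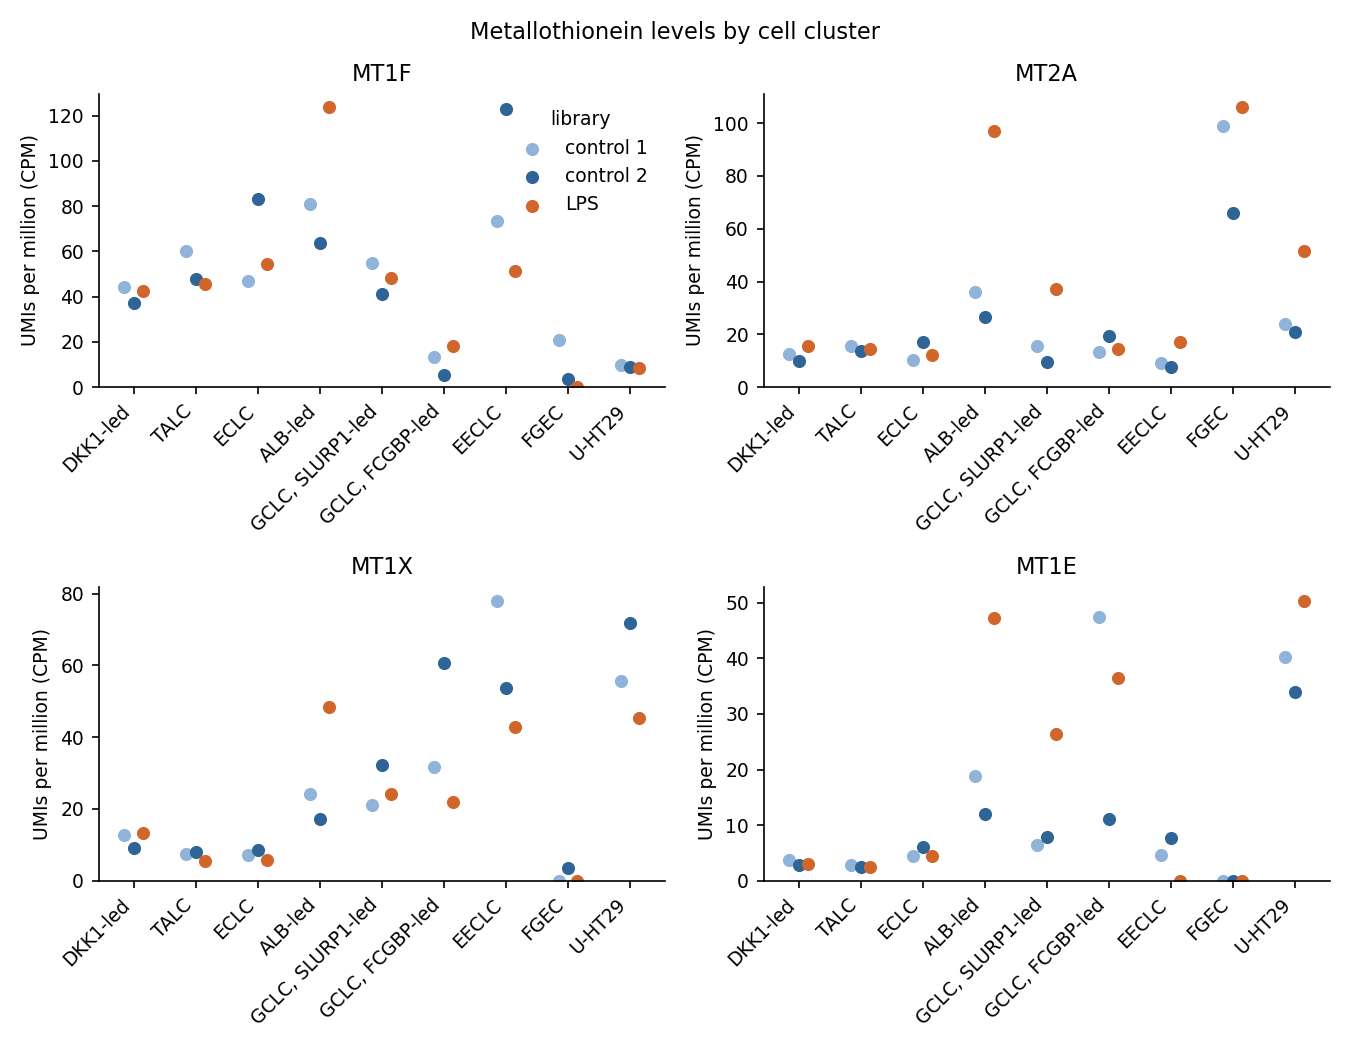
Levels of MT1F, MT2A, MT1X and MT1E in 9 cell clusters, in CPM on linear axes, with 1 point per library. FGEC is highest for MT2A, and MT1F is at 20.8 CPM or less in the FCGBP-led GCLC cluster, FGEC and U-HT29 and at 37.0 CPM or more in the others.

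An unnamed cluster of 514 cells, 99.4% of them Caco-2-type, was led by ALB, AFP and A2M, genes of the liver. It held more of every common member than the other Caco-2-type cells did. MT2A was at 35.3, 27.1 and 96.9 CPM in its Caco-2-type cells of control 1, control 2 and LPS, and at 14.6, 14.4 and 12.7 CPM in the Caco-2-type cells of other clusters. MT1F was at 81.4, 64.8 and 124 CPM against 52.1, 53.7 and 45.6 CPM on the same split. In control 2 its counting intervals overlapped, at 50.8 to 81.3 against 50.4 to 57.2 CPM. ECLC held more MT1F than the ALB-led cluster in that library, at 83.0 CPM. The cluster held 10.1%, 10.8% and 29.7% of the MT2A UMIs of Caco-2-type cells. It held 145, 193 and 173 of the 3800, 3652 and 3595 Caco-2-type cells. In LPS it had 80 MT2A UMIs, and 30 without its cells of 10 or more member UMIs.

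Most cells had no UMI of the members, namely 68.2%, 73.2% and 76.6% of kept cells in control 1, control 2 and LPS. The counts were uneven, and 48 cells held 10 or more member UMIs, a minimum set after the counts were seen. There were 15, 13 and 20 such metallothionein-rich cells in control 1, control 2 and LPS, or 0.324%, 0.261% and 0.412% of kept cells. They held 11.8%, 6.83% and 16.04% of all member UMIs. Of the 48 cells, 32 were Caco-2-type, 11 HT29-type and 5 between the cuts.

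Rich cells were deeper than the rest. Their median depth was 11526, 5167 and 5698 UMIs in the 3 libraries, against 5459, 4103 and 3574 over all kept cells, and the part of depth in their counts was not tested. By cluster, 14 rich cells were U-HT29, 12 were in the ALB-led cluster, 9 in an unnamed cluster led by S100A9, 6 in the DKK1-led cluster and 4 ECLC. Those 12 were 2.33% of the ALB-led cluster, against 0.156% to 0.610% in the 4 others named here.

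Rich cells did not hold the members in 1 ratio. The highest cell of control 1, Caco-2-type with 50 member UMIs, had 18 MT1E, 18 MT1X, 9 MT2A and 5 MT1F. The next highest had all 7 members, with 11 MT2A and 10 MT1G. The highest cell of control 2 had 24 MT1X and 1 MT1F. The highest cell of the LPS library had 37 MT2A among 62 member UMIs of 2126 UMIs in all, and its line type was between the cuts. In rich Caco-2-type cells a median of 4 members was detected, and in rich HT29-type cells 3.

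**Figure D3:**
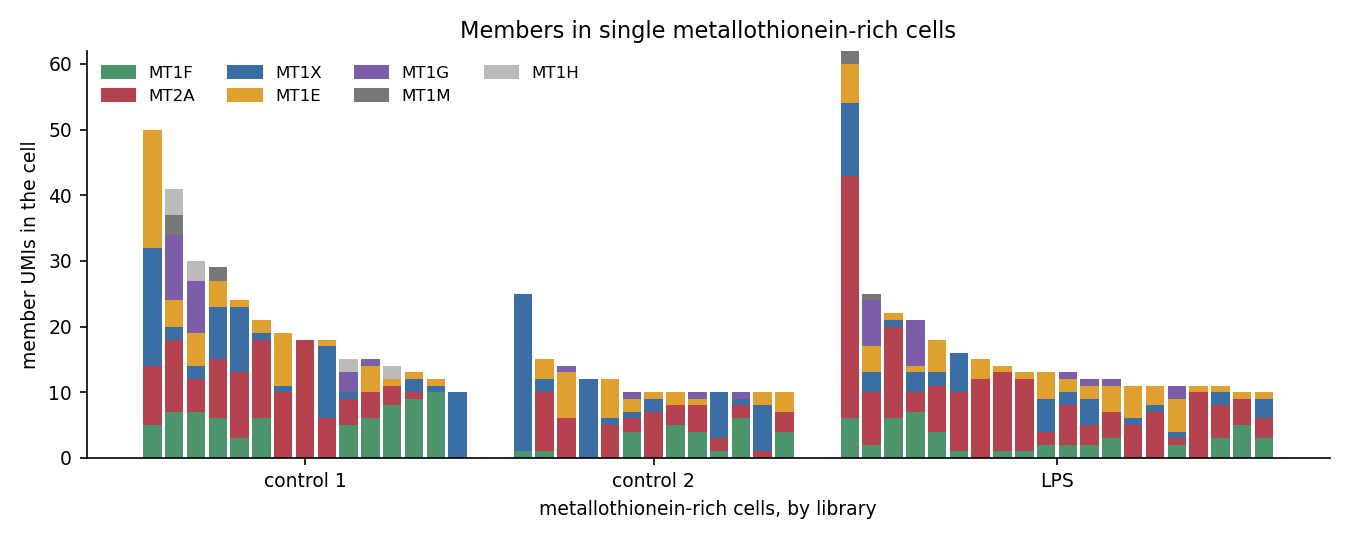
Member UMIs in each of the 48 metallothionein-rich cells, 1 stacked bar per cell, grouped by library and ordered by total. The bars reach 50, 25 and 62 UMIs, and the make-up differs from cell to cell.

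Mean r between the 4 most abundant members was 0.20 in Caco-2-type and 0.06 in HT29-type cells, a difference that was not tested. MT1F was low in HT29-type cells, and its pairs there rested on 1 to 6 cells with both members in a library. Pearson's r was taken across cells of 1 library on ln(1 + UMIs per 10000). It is a description with no test, since cells of a library share their well and differ in depth. Among MT2A, MT1E, MT1F and MT1X in Caco-2-type cells, all 6 pairs were positive in every library, with means over libraries of 0.15 to 0.26. MT2A and MT1E had the highest mean r, 0.26. Thinning every cell to the minimum depth set for control 1 gave 0.18 for this pair, and leaving out the rich cells gave 0.14.

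In HT29-type cells MT2A and MT1E had a mean r of 0.25, or 0.19 after thinning, while MT1E and MT1X, the leading members there, had 0.01. Mean r over the other pairs ran from -0.01 to 0.07. At such sparse counts r this low is no finding by itself.

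**Figure D4:**
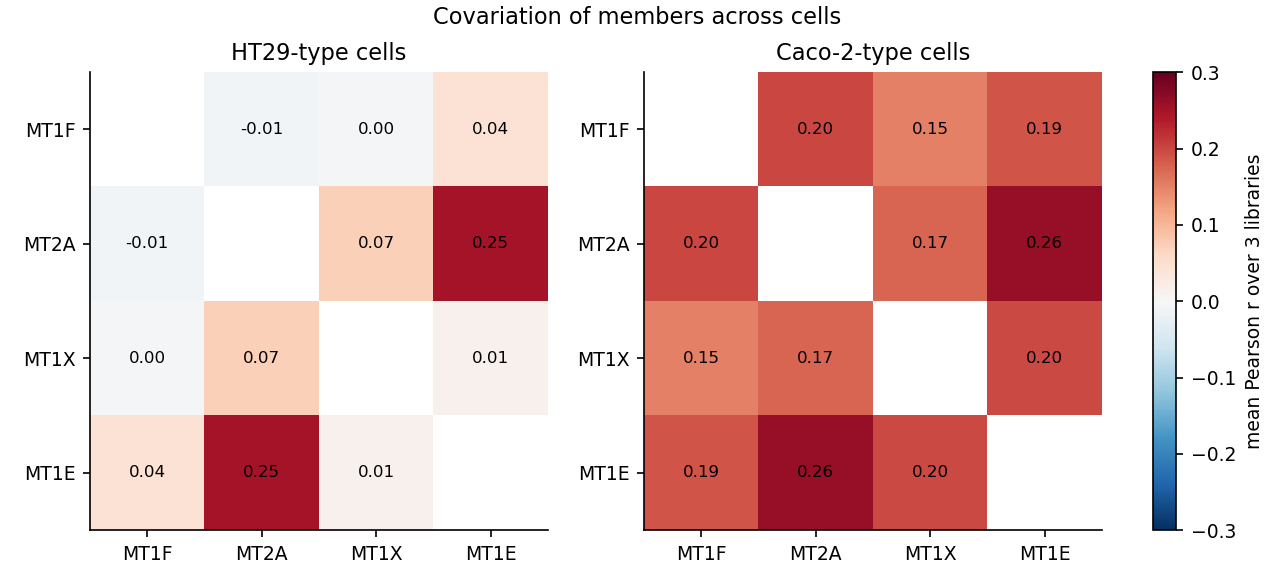
Mean Pearson r over the 3 libraries for each pair of 4 members, in HT29-type and Caco-2-type cells, on a colour scale from -0.3 to 0.3. All pairs are positive in Caco-2-type cells, and in HT29-type cells MT2A and MT1E stand out at 0.25.

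The 5 genes most like the summed members were ranked by mean r over 3 libraries. In HT29-type cells these were ISG15 (0.15), S100A10 (0.15), IFITM3 (0.14), EIF3K (0.14) and IFI27 (0.14) of 6800 genes. ISG15, an interferon-induced ubiquitin-like protein, had r of 0.07, 0.06 and 0.31 in control 1, control 2 and LPS. In Caco-2-type cells these were TMEM141 (0.12), ATP5ME (0.11), APOC3 (0.11), TMEM256 (0.10) and ALB (0.10) of 7316 genes.

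Single members were ranked the same way, a step added after those genes were seen. MT2A in HT29-type cells was most like IFITM3, MX2, ISG15, SAMD9 and IFIT1, all known to be induced by interferon, with r of 0.37 to 0.45 in the LPS library and -0.01 to 0.17 in the controls. MT1E was most like GSTP1, RPS19 and TXN, with mean r of 0.17, 0.17 and 0.17, and MT1X most like P4HA2 and LDHA, with 0.13 and 0.11. In Caco-2-type cells ALB was the first gene for MT2A, MT1E and MT1X, with mean r of 0.10, 0.13 and 0.08.

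The LPS library was set beside the controls to see which members differed after treatment. With 1 treated well there was no test, and LPS and the well cannot be told apart. A gene was counted when its LPS level was at least 1.5-fold above both controls, or below both, among genes at 10 CPM or more in 1 library. In HT29-type cells this held for 1.73% of 8490 genes upward and 0.589% downward, and of the members for MT2A upward alone. Only MT2A, MT1E and MT1X reached 10 CPM there. The other members could not pass, MT1G among them at 2.35 CPM in LPS against 1.10 and 0.802 CPM in the controls. MT2A was at 47.0 CPM (exact 95% Poisson interval 39.5 to 55.4) in the LPS library against 20.7 and 21.6 in the controls, a log2 ratio to the control mean of 1.15, while the controls differed by 0.07. The Poisson interval covers counting error only. MT1X was lower at 46.0 CPM against 56.2 and 70.0 CPM, a log2 ratio of -0.46. MT1E, with a log2 ratio of 0.40, was within the 1.5-fold limit.

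No member passed the limit in Caco-2-type cells, where 0.144% of 8327 genes passed upward and 0.0721% downward, or in all kept cells, where 0.177% and 0.0471% of 8490 genes did. MT1G, MT1H and MT1M were under the 10 CPM minimum in both, and MT1E in Caco-2-type cells, so they could not pass. MT1G was at 3.19 CPM in LPS against 1.89 and 1.17 CPM in Caco-2-type cells, and at 2.89 against 1.70 and 1.02 CPM in all kept cells. MT2A in Caco-2-type cells was at 15.5, 15.2 and 17.2 CPM, a log2 ratio of 0.16, and MT1F at a log2 ratio of -0.12. In all kept cells MT2A had a log2 ratio of 0.60, which was 0.30 without the rich cells. Against control 2 alone it was 0.63, which passed the limit, as did 0.357% of 8405 genes upward.

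MT2A was then described in the HT29-type cells with UMIs of ISG15, IFITM3 and IFI27 together. These genes were picked because they followed the members in the same cells, above all in the LPS library, so a higher MT2A in such cells restates that and is no separate support. The genes were themselves higher in HT29-type cells of the LPS library, with ISG15 at 577, 523 and 1021 CPM and IFITM3 at 28.1, 39.5 and 82.9 CPM in control 1, control 2 and LPS. IFI27, at 1015, 1155 and 1504 CPM, did not reach the 1.5-fold limit. The share of cells with a UMI was not higher in LPS for ISG15 (72.8%, 63.1% and 62.7%) or IFI27 (77.6%, 75.9% and 75.5%). There were 54, 64 and 102 cells with UMIs of all 3 genes in control 1, control 2 and LPS, or 8.94%, 7.15% and 13.8% of HT29-type cells. IFITM3 had a UMI in 59, 75 and 112 HT29-type cells, so it largely set this group. MT2A was at 56.7, 30.5 and 175 CPM in the cells with all 3 genes and at 16.8, 20.6 and 17.7 CPM in the other HT29-type cells. In the LPS library, 69.3% of the MT2A UMIs of HT29-type cells were in those 102 cells.

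MT1E was also higher in the same cells, at 59.6, 53.4 and 117 CPM against 41.2, 31.6 and 35.4 CPM in the rest. MT1E is part of the member sum by which these genes were picked, so its higher level restates that choice too. Its exact Poisson intervals overlapped in control 1 (36.9 to 91.1 against 34.5 to 48.8 CPM) and control 2 (33.1 to 81.7 against 25.9 to 38.3 CPM). In LPS they lay apart, at 90.7 to 150 against 28.3 to 43.7 CPM. The cells with all 3 genes held 21, 21 and 65 MT1E UMIs in control 1, control 2 and LPS. These intervals cover counting error only and are no test. The 3 genes followed the members above all in LPS, so their choice builds in a gap there. MT1X was not higher, at 28.4, 35.6 and 39.8 CPM against 59.2, 74.0 and 47.4 CPM. The cells with all 3 genes were deeper, with medians of 5714, 5020 and 4787 UMIs against 5312, 3683 and 3444. The part of depth in these values was not tested.

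**Figure D5:**
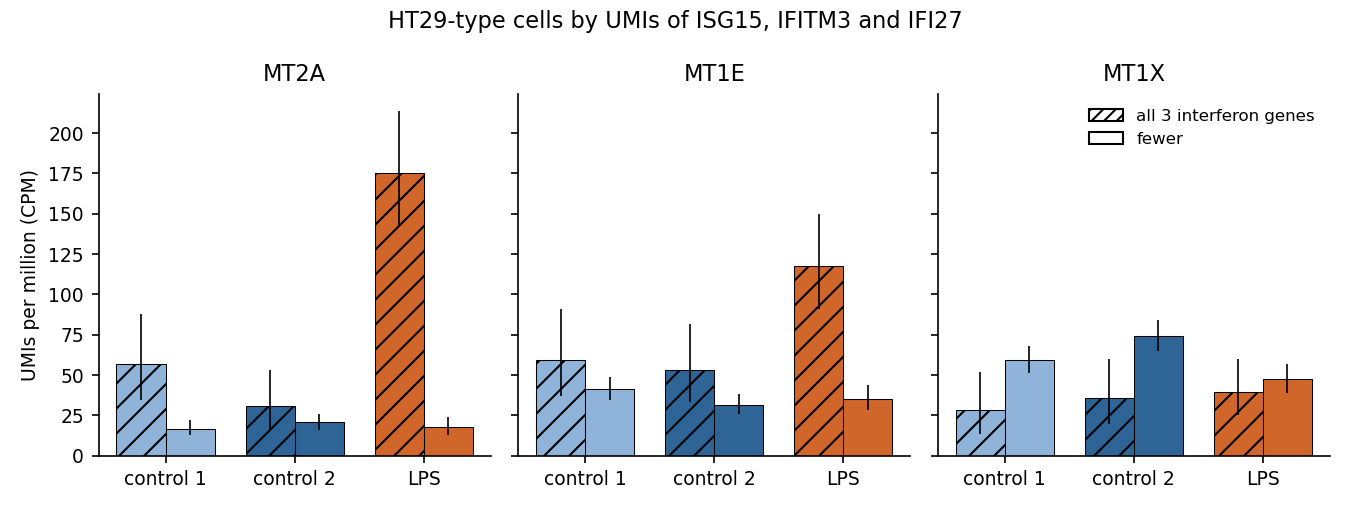
MT2A, MT1E and MT1X in HT29-type cells with UMIs of ISG15, IFITM3 and IFI27 together (hatched) and in the other HT29-type cells (plain), in CPM by library, with exact 95% Poisson intervals. MT2A in the LPS library reaches 175 CPM in the hatched bar and 17.7 CPM in the plain one.

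The comparison was also made in the larger clusters. In the ALB-led cluster, more members passed the limit than in any other of them. MT2A was at 35.9, 26.7 and 96.9 CPM in control 1, control 2 and LPS, MT1E at 18.9, 12.1 and 47.3 CPM, MT1X at 24.2, 17.2 and 48.5 CPM and MT1F at 80.8, 63.7 and 124 CPM. These 4 members passed the 1.5-fold limit, as did 5.73% of 8720 genes upward and 5.55% downward. MT1G, at 16.2, 2.58 and 23.0 CPM, did not. Rich cells made 8 of the 173 LPS cells of this cluster and 2 each of the 146 and 195 control cells. Without them MT2A was at 22.0, 17.5 and 38.7 CPM and MT1E at 10.98, 9.60 and 21.9 CPM. MT1F no longer passed and MT1G did, at 0, 1.75 and 12.9 CPM from 0, 2 and 10 UMIs, beside 6.01% of genes upward and 6.47% downward. ALB itself was at 4693, 4282 and 6049 CPM, and its part in the result was not tested. Of the other clusters compared, U-HT29 had MT2A past the limit upward, beside 1.51% of 8466 genes. The rest had no member past it in either direction. MT1F in the S100A9-led cluster was lower in LPS, at 71.7, 61.7 and 45.1 CPM, but within the limit.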

How the data were processed

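Single-cell RNA was measured by 10x Genomics 3′ chemistry in 2 control and 1 LPS-treated Transwell co-cultures of Caco-2 and HT29 cells. The matrices of UMI counts, as deposited by the authors, hold whole counts per gene and barcode with no normalization. The submitters' processing notes name Cell Ranger, and the file headers give version 3.1.0. Samples under 70% viability had dead cells removed before loading, per the labels. The members and gene lists were chosen with earlier results of these data known.

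The minimum UMI number per cell was 2250 for control 1, and 1500 for control 2 and LPS, and the minimum gene number was 770, 700 and 700 in that order, with at most 20% mitochondrial UMIs, taken from the study's methods, which give none for the LPS library. The automatic doublet threshold (scanpy 1.11.5) marked 1, 0 and 2 cells, so it did not work, and the 6% of cells with the highest scores were removed. Libraries were normalized with SCTransform (sctransform 0.4.2), integrated in Seurat 5.3.0 on 3000 features without metallothionein genes, and clustered (leidenalg 0.10.2, resolution 0.5, the first 50 principal components, 15 neighbours). A class name needed 3 raised markers and 1 marker among the 10 most raised genes, the latter set after clusters were seen, and was withheld where the 3 leading genes held more markers of another class. HT29-type cells had at least 0.8 and Caco-2-type cells at most 0.3 of their line-gene UMIs on the HT29 list, with at least 10 such UMIs.

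Counts were summed per line type and library into 6 sums and fitted with edgeR 4.0.16 in R 4.3.3. The settings were quasi-likelihood, TMM scaling, a low-count filter, library as a block and a Benjamini-Hochberg threshold of 0.05. The fit was also run on simulated data in which few genes changed. Most genes passed in the real data, so that run does not show how the fit behaves on them. DESeq2 1.42.0 was an alternative. The libraries are wells of the same cultures, so p-values measure the spread between wells. Since 1 well was LPS-treated, that spread includes any LPS difference that is unlike between line types. Named list genes passed the threshold and 2-fold, at most 6 per list by size, and likeness used genes with a UMI in at least 5% of cells, keeping 5. Intervals are exact at 95% and cover counting error only. Alternatives covered the cell filters, doublets, depth, scaling, clustering and each left-out library.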

Additional observations from a re-analysis of the deposited data

Results flagged for a closer look

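MT1F and MT1X lay above both controls in the LPS library in one line type and below both in the other. This flag asks for order only, with no minimum size. The share of all genes that meet it was not counted, so it is no result about these members. MT1F was at 7.71 CPM against 5.79 and 6.15 CPM in HT29-type cells and at 49.7 CPM against 53.4 and 54.4 CPM in Caco-2-type cells, and its log2 ratio of LPS to the control mean was higher in HT29-type cells by 0.49. MT1X was at 46.0 CPM against 56.2 and 70.0 CPM in HT29-type cells and at 10.7 CPM against 10.6 and 10.6 CPM in Caco-2-type cells, a difference of the log2 ratios of -0.48. Neither difference was tested, since there was 1 LPS library, and the Caco-2-type ratios were -0.12 and 0.02 on the log2 scale. Both upward ratios lay within counting error. MT1F in HT29-type cells had 21, 23 and 23 UMIs in control 1, control 2 and LPS. The interval, which covers counting error of the LPS count only, was -0.29 to 0.96 for it. For MT1X in Caco-2-type cells the interval was -0.21 to 0.24.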

How the results depend on the processing

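No paired analysis was possible because the LPS group holds 1 library, whose number pairs it with no more than 1 control. Between line types the library was the block, and 10151 genes passed with it and 9721 without it. The count ran from 8302 (DESeq2) to 10937 (no filter on low counts) over the alternatives, and from 9497 to 9582 with 1 library left out. The fitted differences of MT2A, MT1E, MT1F, MT1G and MT1X kept their sign in all 49 comparisons, of which 1 moved beyond the spread between libraries. MT1H and MT1M had no main fit and were in none of them. Every named list gene kept its call in all 209 comparisons. Of 127 log2 ratios of LPS to controls, 17 moved beyond the counting interval of the LPS count and 1 reversed. Only a ratio that had passed the limit could count as reversed. The 1 that did was MT2A in HT29-type cells without the cells holding the interferon genes, given below. Ratios that had not passed also changed sign. That of MT2A in Caco-2-type cells went from 0.16 to -0.11 without the rich cells, and that of MT1E there from 0.32 to -0.39 after thinning. For LPS against controls, 1 member passed the limit in all but 1 of the settings run by line type. The range was 1 to 2 when 1 control was left out. Without control 1, MT1X passed downward in HT29-type cells as well, beside 1.75% of 8353 genes. MT2A then also passed upward in all kept cells, beside 0.357% of 8405 genes. Without the HT29-type cells that held UMIs of ISG15, IFITM3 and IFI27, genes chosen for following the members in these cells, the MT2A log2 ratio of 1.15 became -0.0778, a fall that the choice of genes builds in. Summed member levels were 94.8 CPM in control 2 and 101 CPM in LPS, and 99.6 and 95.3 CPM after thinning to the minimum depth of control 1, which leaves out shallower cells. Mean r over the 6 pairs in Caco-2-type cells was 0.20, and 0.12 after thinning and 0.13 without rich cells, the latter chosen after seeing the data. The cause was not tested. The ALB-led cluster also formed at a resolution of 0.8, and no such cluster was found under log normalization without integration. MT1F exceeded MT1E and MT1X in every library in 2 named classes, and in 4 under log normalization without integration. MT1H and MT1M had no UMI in HT29-type cells, and the part of depth in this was not tested.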

Other observations

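Cells with a UMI of MT1G, MT2A or MT1E mostly held a UMI of another member as well. Of the cells with an MT1G UMI, 89.7%, 82.6% and 65.0% in control 1, control 2 and LPS had a UMI of another member, while 31.7%, 26.7% and 23.1% of all kept cells had a UMI of a member other than MT1G. For MT1F these shares were 24.5%, 24.6% and 23.3%, against 15.7%, 14.3% and 12.8% of all kept cells. For MT2A they were 60.2%, 51.0% and 56.9%, against 29.1%, 24.0% and 21.1%. For MT1E they were 56.3%, 55.1% and 51.8%, against 29.9%, 25.3% and 21.4%. For MT1X they were 44.1%, 37.5% and 39.5%, against 27.5%, 22.1% and 19.8%. Each comparison leaves out the member itself, and MT1F was the most abundant. MT1H was found in 7, 1 and 0 cells and MT1M in 3, 0 and 4, too few to read a share. The part of depth in these shares was not tested.

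The spread of the counts over cells also differed between members. The variance divided by the mean (Fano factor), with cells thinned to 1 depth, was 1.35, 1.26 and 2.87 for MT2A in HT29-type cells of control 1, control 2 and LPS, against medians over all genes of 1.03, 1.02 and 1.02. For MT1X in HT29-type cells it was 1.57, 2.13 and 0.974, so that the LPS library had the highest value for MT2A and the lowest for MT1X. MT1E in Caco-2-type cells was at 3.35, 1.47 and 1.48, and 1 cell of control 1 held 18 MT1E UMIs, against at most 5 in a cell of control 2 and of LPS.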
